A study of Mus musculus with 31 samples.

Results

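The genes described here encode the proteins that release neurotransmitter from synaptic vesicles: Snap25, Stx1a, Vamp1, Vamp2, Syt1, Syt2, Cplx1, Cplx2 and Syp. They were taken with every probe set that the platform annotation gives to these symbols alone, which came to 23 probe sets for 9 genes, out of 45101 probe sets and 18194 genes on the arrays. A further probe set that carries Vamp1 together with an unnamed gene model was left out (mean intensity 10.9). The members were measured on 31 Affymetrix mouse expression arrays, 1 array per sample, labelled as CD4 T cells of spleen and lymph nodes. Each deposited value is a probe set intensity on a linear scale.

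The arrays carry the labels of 10 groups. Conventional T cells (3 arrays) and natural regulatory T cells (natural Treg, 4 arrays) came from Foxp3/EGFP bicistronic reporter mice, in which a green fluorescent protein marks cells that express the transcription factor Foxp3. Activated T cells (4 arrays) were conventional cells of these mice stimulated with anti-CD3 and anti-CD28 without TGF-beta, and activated natural Treg (3 arrays) had both antibodies and TGF-beta. Induced Treg (5 arrays) were conventional cells that had 3 days of both antibodies and TGF-beta and then switched on the reporter. Failed induced Treg (3 arrays) came from the same cultures and had not. Cells with the Foxp3deltaEGFP mutant allele make up the natural Foxp3-delta group (2 arrays, from heterozygous females) and the induced Foxp3-delta group (3 arrays, 3 days of the same treatment). IL-2 induced Treg and IL-2 induced Foxp3-delta (2 arrays each) were then kept for another week with interleukin 2 (100 units per ml). No label gives an age, and none says that arrays of a group came from separate animals or cultures, so the p-values speak of variation among these arrays alone, part of which may be technical.

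Release of transmitter rests on SNARE proteins, which zip a vesicle to the plasma membrane and drive the fusion of both. Snap25 and Stx1a (syntaxin 1A) sit on the plasma membrane and Vamp1 and Vamp2 (synaptobrevins) on the vesicle, synaptotagmins Syt1 and Syt2 bind calcium and trigger fusion, complexins Cplx1 and Cplx2 bind the assembled SNARE complex and hold it ready, and Syp (synaptophysin) is an abundant protein of the vesicle membrane. In the rodent brain the paralogs are unevenly placed: Syt1 and Vamp2 prevail in the forebrain, while Syt2 and Vamp1 are prominent in brainstem and spinal cord. T cells release cytokines and lytic granules mainly with other members of these families, such as Snap23, Vamp3 and Vamp8.

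The marker genes went against the labelled cell type, so groups are named here as the arrays labelled so. Genes of T cells had a median percentile of 28.0 within an array (16 genes, 25.6 to 31.1 over the 31 arrays), 13 of them lay below the middle of the array, and Foxp3 had an intensity of 7.62 to 17.0. Genes of neurons had a median percentile of 99.1 (10 genes) and those of oligodendrocytes 99.7 (7 genes). No marker of any list was at 0, which does not show detection. The bacterial control probe sets, a measure of background, had medians of 6.12 to 12.2 within an array. The array medians ran from 22.2 to 55.4. By the cre to bioB ratio (hybridisation control probe sets), the median and the 99th percentile of intensity, the arrays fell into 3 sets. These array sets held 15, 6 and 10 arrays, with medians of 37.0 to 47.7, 40.8 to 55.4 and 22.2 to 37.4. No label gives a batch, and whether the sets are technical was not tested. All arrays labelled conventional T, natural Treg and IL-2 cultured lay in set 1, all activated natural Treg and 3 of 4 activated T arrays in set 3.

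For each member at least 1 probe set stood above background on every array. 22 of the 23 probe sets exceeded the 95th percentile of the bacterial control probe sets, a measure of background, on 31 of 31 arrays. The exception was the dimmer Syp probe set (1456249_x_at, mean intensity 14.03), which did so on 20 arrays. Since probes differ in how well they hybridise, intensities are compared here between arrays and not between genes.

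Snap25, the plasma membrane SNARE with a pair of SNARE helices, had an intensity of 10352 ± 2736 (SD, n = 31) at its bright probe set (1416828_at), a mean percentile of 99.8. Its group means ran from 7368 ± 150.4 (n = 2) on the IL-2 induced Treg arrays to 13201 ± 5753 (n = 3) on the failed induced Treg arrays. That last group held 12048, 8111 and 19443, so 1 group held a low value and the highest of all 31. The other Snap25 probe set (1447763_at) had a mean intensity of 32.3, and was not tested.

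Stx1a, the partner of Snap25 on the plasma membrane, had mean intensities of 228 ± 48.4 (1437390_x_at) and 79.9 ± 19.8 (1448366_at) at its probe sets, at mean percentiles of 76.2 and 60.8. On deposited values the brighter one had its lowest group mean on the activated natural Treg arrays, where single arrays gave 145, 163 and 182. Its highest deposited group mean was on the induced Foxp3-delta arrays, at 317, 257 and 209. The activated natural Treg arrays had low array medians, of 24.2, 27.2 and 29.3. After quantile normalisation the order turned, and their log2 mean of 8.03 was the highest of all groups. The lowest deposited value of all, 124, came from activated T array 3, which also had the lowest array median, 22.2.

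Vamp1, a vesicle SNARE, had an intensity of 8153 ± 2004 (1421863_at, mean percentile 99.7) and of 1510 at its other probe set (1421862_a_at). By array, the brighter one gave 8228, 7259.6 and 7079 on conventional T, 9839, 8253, 4813 and 7449 on activated T, and 7341, 7570.5 and 7937 on activated natural Treg. The 4 natural Treg arrays gave 6789, 7389.9, 6929 and 6370.3. These groups overlapped, and activated T array 3 was the lowest of all 31.

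Vamp2, the other vesicle SNARE, had 918 ± 237 (1420834_at, mean percentile 92.2) and 315 ± 104 (1420833_at, mean percentile 80.3). On the brighter one, conventional T arrays gave 839, 993 and 1002 and activated T arrays 1258, 564, 276 and 786. Natural Treg arrays gave 866, 888, 967 and 885 and activated natural Treg arrays 428, 449.7 and 793. On deposited values all activated natural Treg arrays lay below all natural Treg arrays, which had higher array medians, and on normalised values they overlapped (adjusted p 0.17 by limma). The activated T arrays lay on both sides of the conventional ones. Activated T array 3 held Vamp2 at a percentile of 86.7, the lowest of the 31.

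Syt1, a calcium sensor, had 1896 ± 525 (1433884_at, mean percentile 96.4), and its other 3 probe sets had mean intensities of 65.4 to 191. Group means at the brightest probe set ran from 1158 ± 21.5 (IL-2 induced Treg, n = 2) to 2528 ± 98.5 (natural Foxp3-delta, n = 2). Induced Treg arrays gave 1991, 2274, 2226, 3218 and 2103, and both IL-2 induced Treg arrays, at 1174 and 1143, lay below all of them.

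Syt2, the paralogous sensor, had 1287 ± 427 (1440323_at, mean percentile 94.4), while its other probe sets stood at 63.7 and 47.0. It varied within groups more than most members. Conventional T arrays gave 1878, 995 and 1352, natural Treg arrays 1274, 1939.6, 1060.3 and 1021, and natural Foxp3-delta arrays 2279.6 and 947. On normalised values (quantile normalisation, log2 of intensity plus 16) its SD over all arrays was 0.32, above that of 97.2% of the 24669 probe sets tested.

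Cplx1, which clamps and then promotes fusion, had 14655 ± 2647 (1448832_a_at, mean percentile 99.9), 5101 ± 2669 (1417746_at) and 2367 ± 625.2 (1417747_at). The first probe set gave 13483, 12048 and 13585 on conventional T arrays and 16065, 15026, 9049.8 and 13559.6 on activated T arrays. It gave 12242, 14514, 11701 and 12774 on natural Treg arrays and 11179.9, 13969.8 and 11731 on activated natural Treg arrays. Both natural Foxp3-delta arrays, at 19525 and 21036, were above the other 29, whereas on normalised log2 values their mean of 13.98 lay below those of IL-2 induced Treg (14.03) and IL-2 induced Foxp3-delta (14.05). The 1417746_at probe set reached 17114 on failed induced Treg array 3, against 4338 and 4854 on the other arrays of that group.

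Cplx2 had 861 ± 206 (1421477_at, mean percentile 91.9), 737 ± 193 (1455672_s_at) and 401 ± 122 (1436383_at). The suffix of the second one marks probes that can match several transcripts. Conventional T arrays gave 886, 763 and 889.8 at the first, activated T arrays 945, 649, 409 and 852, and activated natural Treg arrays 569.6, 558 and 800.1. The natural Foxp3-delta arrays, at 1409 and 611, were the highest of all and among the lowest.

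Syp had 1474 ± 384 (1448280_at, mean percentile 95.3). Activated natural Treg arrays gave 796, 711 and 1814, so a single group held the 2 lowest values of all 31 arrays and a value above the mean.

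**Figure D1:**
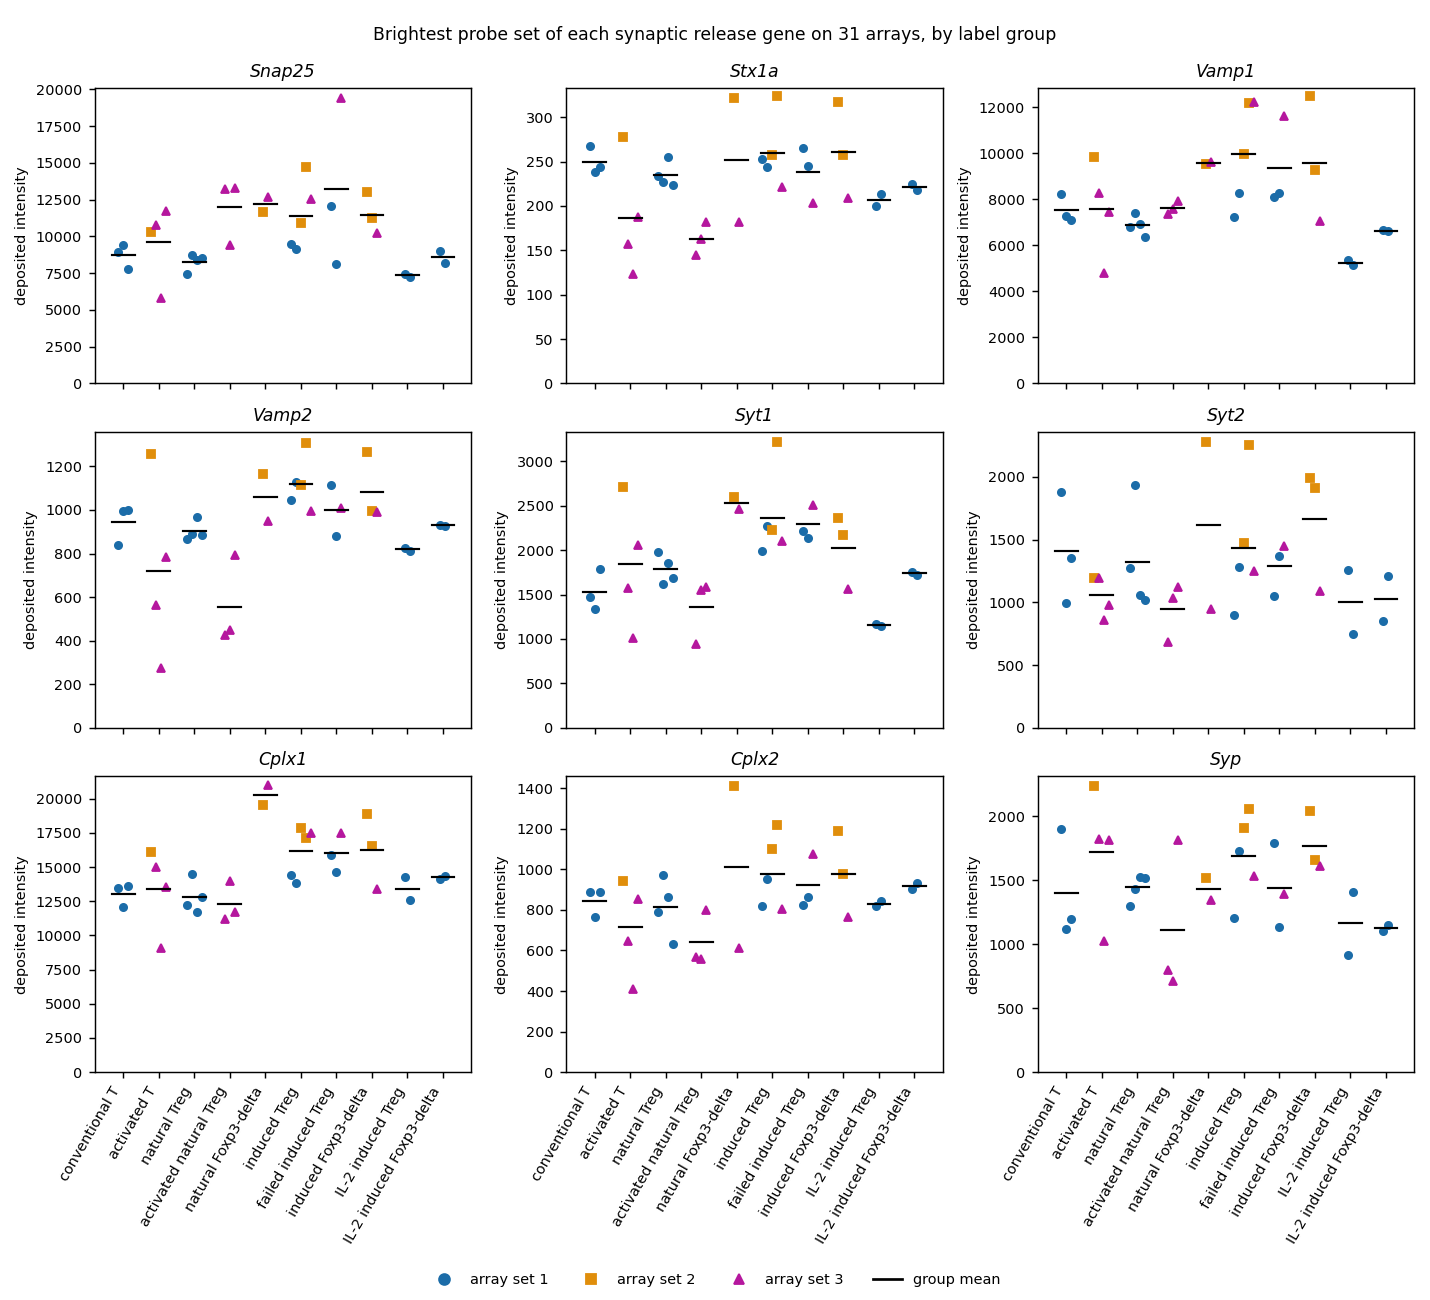
Deposited intensity (vertical axes, linear, from 0) of the brightest probe set of each of the 9 genes on 31 arrays, by label group. Points are arrays, shapes and colours the 3 array sets, and lines the group means. Arrays of set 2 (squares) tend to lie high and those of set 3 (triangles) spread widely within a group, as on Vamp2, where activated T arrays ran from 276 to 1258.

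**Figure D2:**
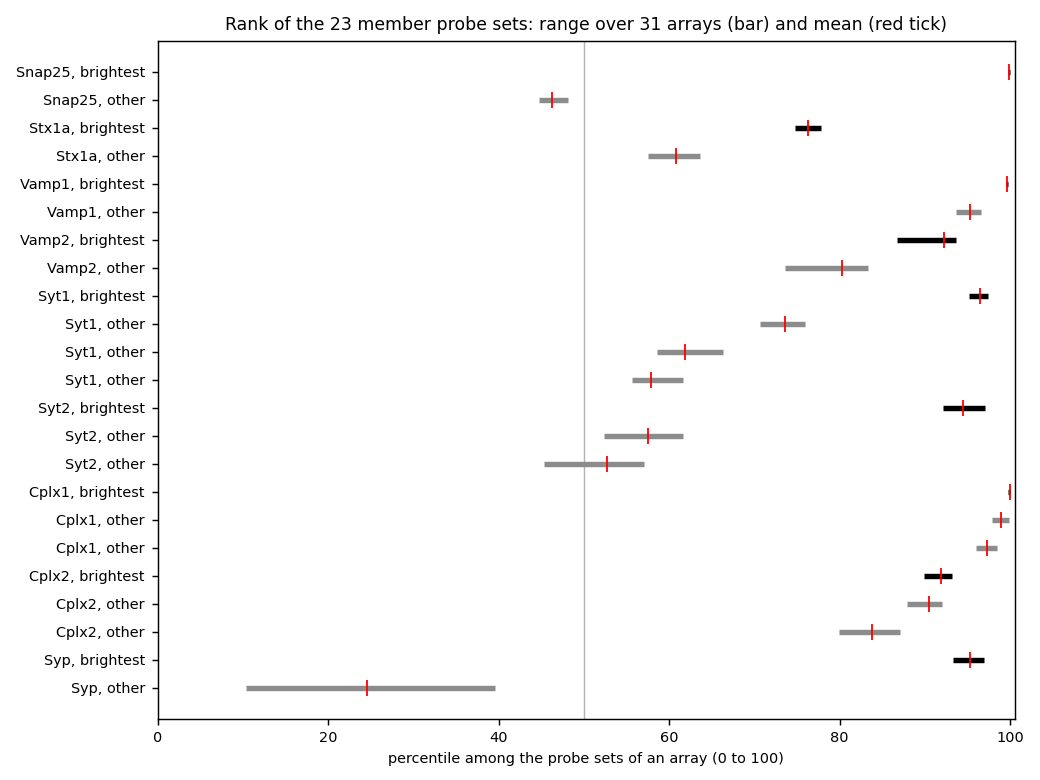
Percentile of the 23 member probe sets among all probe sets of an array (horizontal axis, 0 to 100); bars give the range over 31 arrays, black for the brightest probe set of a gene and grey for the others, red ticks the mean, and the line the middle of the array. The brightest probe sets have means of 76.2 (Stx1a) to 99.9 (Cplx1), and the widest bar is the dim Syp probe set.

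Probe sets of a gene varied together weakly at most over the arrays. On normalised values, the correlation between the brightest probe set of a gene and its others ran from -0.25 (Cplx1 and Cplx2) to 0.34 (Vamp1) over 31 arrays, and was 0.26 for Vamp2. Pairs of members were correlated weakly as well: over the 36 pairs of genes, r ran from -0.40 (Vamp2 and Syt2) to 0.39 (Vamp1 and Cplx1), with a median of -0.11. These correlations are a description over arrays that share labels and array sets. The median SD was 0.17 for the 21 member probe sets tested and 0.16 for all 24669. Label group accounted for a median of 42.6% of the variance of the members and 40.5% of that of all probe sets, and array set for 15.4% and 23.4%. These shares are not adjusted for the number of groups, and 10 labels take up more variance by chance than 3 sets. Label and set shares are therefore not comparable with each other. Array set accounted for 65.5% at Vamp2 1420833_at and 53.1% at Cplx1 1448832_a_at, the highest shares among the members.

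Since Vamp1 and Cplx1 were the most alike pair, the 250 bases before their annotated starts are shown, read from RefSeq (GRCm38.p6), with capitals for GC boxes (GGGCGG or CCGCCC) and CCAAT boxes (CCAAT or ATTGG). Vamp1 lies on chromosome 6 from 125215581 to 125222306 and its window, on the plus strand, is chr6:125215331-125215580. Cplx1 lies on chromosome 5 from 108518554 to 108550027 and its window, on the minus strand, is chr5:108550028-108550277.
Vamp1: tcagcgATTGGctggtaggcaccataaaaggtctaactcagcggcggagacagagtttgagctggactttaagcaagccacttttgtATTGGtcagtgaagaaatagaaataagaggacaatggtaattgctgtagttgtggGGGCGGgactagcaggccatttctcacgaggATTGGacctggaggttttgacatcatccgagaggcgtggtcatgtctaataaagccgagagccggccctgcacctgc
Cplx1: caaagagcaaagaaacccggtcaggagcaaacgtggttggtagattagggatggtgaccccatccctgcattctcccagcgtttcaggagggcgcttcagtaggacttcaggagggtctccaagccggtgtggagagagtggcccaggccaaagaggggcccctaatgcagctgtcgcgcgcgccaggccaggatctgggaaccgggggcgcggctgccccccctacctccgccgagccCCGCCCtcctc
The Vamp1 window holds 1 GC box, starting 108 bases before the start, and 3 CCAAT boxes, 244, 163 and 77 bases before it. The Cplx1 window holds 1 GC box, 11 bases before the start, and 0 CCAAT boxes. Of all 32851 such windows in the table, 32.7% hold a GC box and 33.8% a CCAAT box, on either strand. TATA boxes (TATAAA or TTTATA, 12.4% of all windows) and cAMP response elements (TGACGTCA, 1.55%) matched in 0 of the 9 windows found for 7 members. No match overlapped another. Matches are letters in a window and describe no binding.

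For the comparisons of label groups, the normalised values of 24669 probe sets were fitted with limma, and a probe set was called at a Benjamini-Hochberg adjusted p under 0.05 over all of them. 21 member probe sets entered. Those left out, the dim probe sets of Snap25 and Syp, did not lie above the table median of 39.82 on at least 2 arrays once normalised. Snap25 1447763_at passed on deposited values, on 4 arrays. Fewer cells of a type and less RNA per cell cannot be told apart in such samples.

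Between the conventional T and natural Treg arrays no member probe set was called, where 0.00405% of all probe sets were called, and none was between natural Treg and natural Foxp3-delta arrays (0.0892% called). At an unadjusted p under 0.05 stood 2 of 21 in the first comparison (2.53% of all probe sets) and 1 of 21 in the second (15.5%). The natural Treg arrays lay in set 1 and the natural Foxp3-delta arrays in sets 2 and 3. Label and array set therefore cannot be told apart in the second comparison. The members nearest to a call were Syt1 1421990_at, at 0.23 (SE 0.08) above conventional T with an adjusted p of 1, and Stx1a 1448366_at, at 0.23 (SE 0.11) above natural Foxp3-delta with an adjusted p of 0.296. Induced Treg and induced Foxp3-delta differ in the labels by the mutant Foxp3 allele. Between them 0 members and 0% of all probe sets were called. Only 1 member had an unadjusted p under 0.05 (3.04% of all), Syt1 1433884_at, at 0.30 (SE 0.11, adjusted p 1). The induced Treg arrays lay in sets 1, 2 and 3, and the induced Foxp3-delta arrays in sets 2 and 3.

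Between the activated T and conventional T arrays 6.17% of all probe sets and 0 members were called. These groups share no array set (sets 2 and 3 against set 1), so label and array set cannot be told apart within them. At an unadjusted p under 0.05 stood 3 of 21 (23.5% of all). The smallest adjusted p was 0.0585, for Syt2 1420418_at (log2 difference 0.39, SE 0.12), a dim probe set with a mean intensity of 47.0, and the difference turned to -0.0635 with values as deposited. Vamp2 1420834_at differed by -0.39 (SE 0.15, adjusted p 0.114), and by 0.0178 with arrays scaled to a common median. Without activated T array 1, the single activated T array of set 2, the difference was -0.50 with an adjusted p of 0.0393, and without activated T array 3 it was -0.20 (adjusted p 0.357). With array set as a block it was -0.22 (adjusted p 0.786). Cd3e was higher by 0.81 (SE 0.16, adjusted p 0.00623) and the neuronal Rbfox3 lower by 0.70 (SE 0.20, adjusted p 0.0386) in the same comparison, as 1 of 4 T cell and 1 of 10 neuronal markers tested. The median log2 difference was -0.0117 over these 4 T cell markers and -0.0129 over the 10 neuronal ones. The summed intensity of 16 T cell markers was 515 to 595 on activated T and 502 to 534 on conventional T arrays, and that of 10 neuronal markers 55101 to 57720.0 and 54992 to 58564. The part of these lists in the member values was not tested.

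Between the activated natural Treg and natural Treg arrays 2 of 21 member probe sets were called, both lower, where 7.84% of all probe sets were called lower and 15.6% in either direction. At an unadjusted p under 0.05 stood 5 of 21 (31.1% of all). The 2 called were Vamp2 1420833_at and Cplx1 1448832_a_at, and no other probe set of either gene was called. At Vamp2 1420833_at the activated natural Treg arrays had intensities of 107, 174 and 188 and the natural Treg arrays 316, 343, 368 and 306, without overlap. The log2 difference of normalised values was -0.46 (SE 0.13, adjusted p 0.0243 by limma). At Cplx1 1448832_a_at the deposited intensities overlapped, and the normalised log2 values were 13.54, 13.70 and 13.26 against 13.85, 13.95, 13.85 and 13.97. There the difference was -0.40 (SE 0.12, adjusted p 0.0227 by limma). In all, the groups did not overlap at 4 of 21 member probe sets, against 29.1% of all probe sets.

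All activated natural Treg arrays were in set 3 and all natural Treg arrays in set 1. Label and array set therefore cannot be told apart for either call. Mean normalised log2 values of Vamp2 1420833_at were 8.39, 8.54 and 8.09 in sets 1, 2 and 3, and those of Cplx1 1448832_a_at 13.95, 13.94 and 13.65. With array set as a block, which takes the set differences from other label groups, the differences were -0.12 (adjusted p 0.736) and -0.08 (adjusted p 0.864). With arrays scaled to a common median, the Cplx1 probe set turned to 0.64 higher (adjusted p 0.0108), and with values as deposited it differed by -0.06 (adjusted p 0.758). The Vamp2 call was lost without activated natural Treg array 1 (adjusted p 0.151) or natural Treg array 3 (0.0588). The Cplx1 call was lost without activated natural Treg arrays 1 (0.0511) or 3 (0.13) or natural Treg arrays 2 (0.0525) or 4 (0.0537). The summed intensity of 16 T cell markers was 521 to 552 on activated natural Treg arrays and 477 to 491 on natural Treg arrays, with 2 of 4 tested ones (Cd3e and Ikzf2) higher. That of 10 neuronal markers was 55501 to 58738 and 56728 to 59494, with 0 of 10 called. The part of these lists in the calls was not tested.

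The difference between activated and not activated arrays was also compared between natural Treg and conventional T labels, as an interaction. By the labels, activated natural Treg had TGF-beta and activated T did not, so activation alone was not compared. In the interaction 0 of 21 member probe sets and 0% of the 24669 probe sets were called by limma. The smallest adjusted p was 0.597, for Vamp2 1420833_at (-0.46, SE 0.19). The arrays labelled activated natural Treg and activated T differed at 0 members (0.799% of all called), with 4 members at an unadjusted p under 0.05 (13.8% of all) and a smallest adjusted p of 0.237. Induced Treg and activated T, which differ in the labels by TGF-beta and the sort on Foxp3, differed at 0 members (0.0568% of all called, 2 members and 10.6% of all at an unadjusted p under 0.05).

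Between the IL-2 induced Treg and induced Treg arrays 1 of 21 member probe sets was called, higher, where 0.847% of all probe sets were called higher and 1.79% in either direction. At an unadjusted p under 0.05 stood 6 of 21 (16% of all). The called probe set was Cplx1 1417747_at. Its normalised log2 values were 11.83 and 11.70 on the IL-2 induced Treg arrays and 11.05, 11.18, 11.09, 11.34 and 11.17 on the induced Treg arrays. The groups did not overlap and differed by 0.60 (SE 0.12, adjusted p 0.0126 by limma). On the deposited scale they did overlap, at 2539 and 2445 against 1962, 2357, 2747, 4114 and 2724, and the difference was -0.11 (adjusted p 0.818), beside -0.26 for the median of all probe sets. The other Cplx1 probe sets differed by 0.16 and -0.49 and were not called. The call was lost without IL-2 induced Treg array 1 (adjusted p 0.242) or 2 (0.101). Syt1 1433884_at differed by -0.43 (SE 0.13, adjusted p 0.0841) and was called with array set as a block, at -0.58 (adjusted p 0.0315). The groups did not overlap at 7 of 21 member probe sets, against 23.8% of all. Both IL-2 arrays lay in set 1, and the induced Treg arrays in sets 1, 2 and 3 (2, 2 and 1). The summed intensity of 16 T cell markers was 506 to 533 on IL-2 induced Treg and 492.9 to 537 on induced Treg arrays, with 0 of 4 called, and of 8 microglial markers Cx3cr1 was lower (-0.41, adjusted p 0.0465). Their part in the call was not tested.

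**Figure D3:**
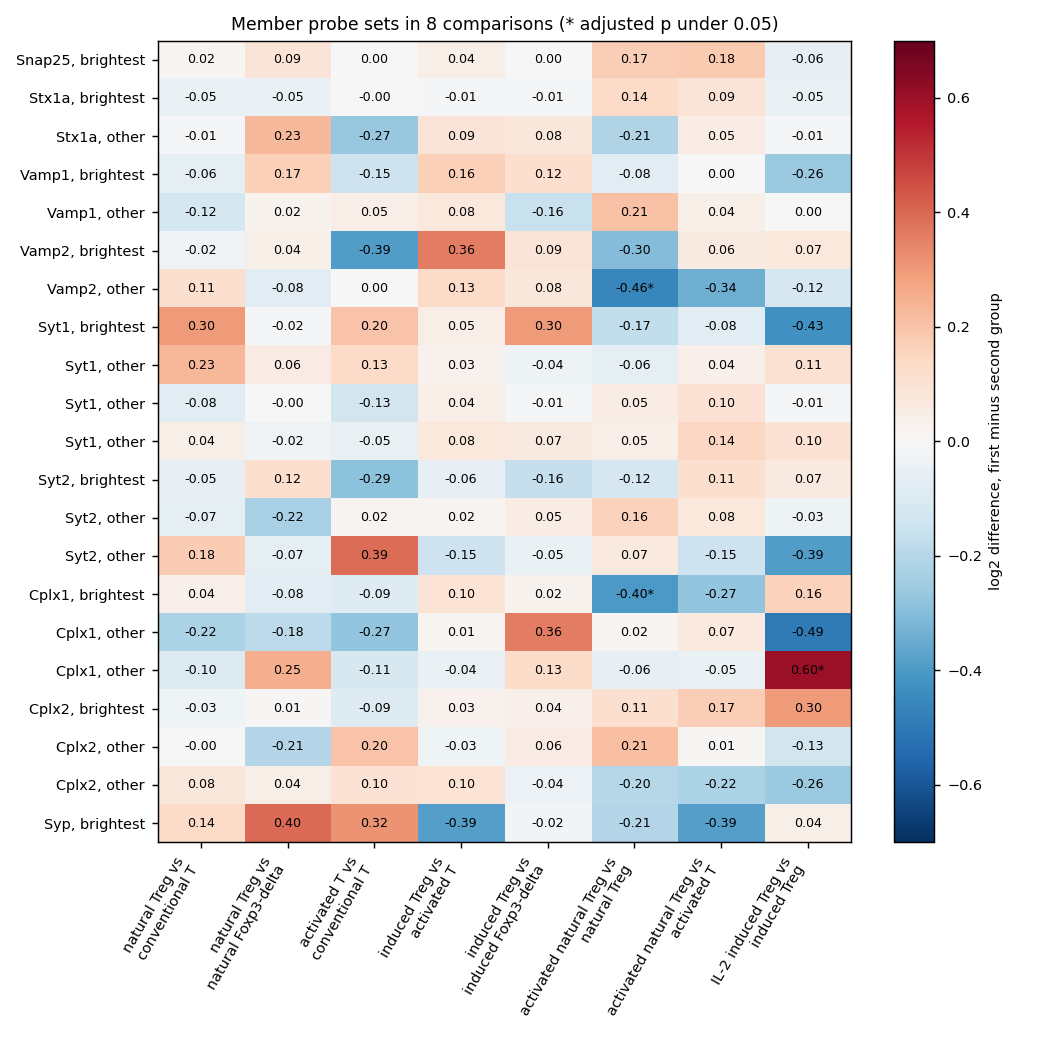
Log2 differences of normalised values (first minus second group; colour and printed number) of the 21 tested member probe sets (rows) in 8 comparisons of label groups (columns); a star marks an adjusted p under 0.05. Only 3 of the cells carry a star, and probe sets of the same gene often differ in sign, as for Cplx1 between IL-2 induced Treg and induced Treg arrays (0.16, -0.49 and 0.60).

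The ratios of paralogs were taken within each array, from deposited intensities of the brightest probe sets, as log2 values. They set arrays against each other and say nothing of how many molecules of either paralog were present. Linear scaling of an array leaves such a ratio as it is, whereas quantile normalisation changes it.

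The Vamp1 to Vamp2 ratio had a mean of 3.17 ± 0.42 (SD, n = 31) and ran from 2.66 to 4.12, or 6.31 to 17.4 on the linear scale. On natural Treg arrays it was 2.97, 3.06, 2.84 and 2.85, and on activated natural Treg arrays 4.10, 4.07 and 3.32. On conventional T arrays it was 3.29, 2.87 and 2.82, and on activated T arrays 2.97, 3.87, 4.12 and 3.25. The highest 4 values of all thus came from activated arrays, and the activated natural Treg arrays lay above the natural Treg arrays without overlap. On induced Treg arrays the ratio was 2.79, 2.87, 3.16, 3.22 and 3.62, on failed induced Treg arrays 2.86, 3.23 and 3.52, and on induced Foxp3-delta arrays 3.30, 3.22 and 2.83. On natural Foxp3-delta arrays it was 3.03 and 3.34. The lowest values were those of IL-2 induced Treg, 2.70 and 2.66, followed in the order of group means by IL-2 induced Foxp3-delta, 2.84 and 2.83. From natural Treg (mean 2.93) up to activated natural Treg (mean 3.83), each group overlapped with its neighbour in that order.

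Across the 10 label groups the Vamp1 to Vamp2 ratio had an F of 3.07 (permutation test with 100000 permutations, p = 0.0209), and adjusted over the 3 ratios p was 0.0627. It fell under the threshold when induced Treg array 5 (0.0457), activated T array 1 (0.0211) or activated natural Treg array 3 (0.0248) was left out. Activated natural Treg lay 0.90 above natural Treg (exact permutation test, 2-sided, p = 0.0571, the smallest that 3 against 4 arrays allow). Over the 24 exact tests of pairs of groups, 8 for each ratio, the smallest adjusted p was 0.571. Group sizes allowed an unadjusted p under 0.05 only for induced Treg against activated T (0.0159 at least) and against induced Foxp3-delta (0.0357 at least). For the other pairs the smallest possible p was 0.0571 to 0.133, so their tests could not pass the threshold and decide nothing.

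The ratio also moved with the array sets. Its mean was 2.90 ± 0.18 (n = 15), 3.15 ± 0.13 (n = 6) and 3.60 ± 0.43 (n = 10) in sets 1, 2 and 3. The intensities of an array at the mean percentiles of both genes, whatever genes stood there, had a log2 ratio of 2.89 to 3.05 in set 1, 2.94 to 3.08 in set 2 and 3.22 to 3.81 in set 3. The sets were formed in part from the median and the 99th percentile of intensity. Their separation by this array ratio is therefore not an independent observation. With the same distribution imposed on all arrays by quantile normalisation, the SD of the Vamp1 to Vamp2 ratio was 0.28 in place of 0.42, and the adjusted p across groups was 0.599. With labels permuted within array sets the adjusted p was 0.896. Such permutations never exchange conventional T or natural Treg arrays with activated ones, which share no set with them. That test therefore cannot separate label from array set for these labels. Activated T array 3 kept a high ratio after normalisation, 4.04, where the other arrays reached 3.58. Other probe sets of both genes gave ratios that correlated with the main one at r of 0.62 to 0.81 over the 31 arrays, with which they share probe sets or arrays.

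**Figure D4:**
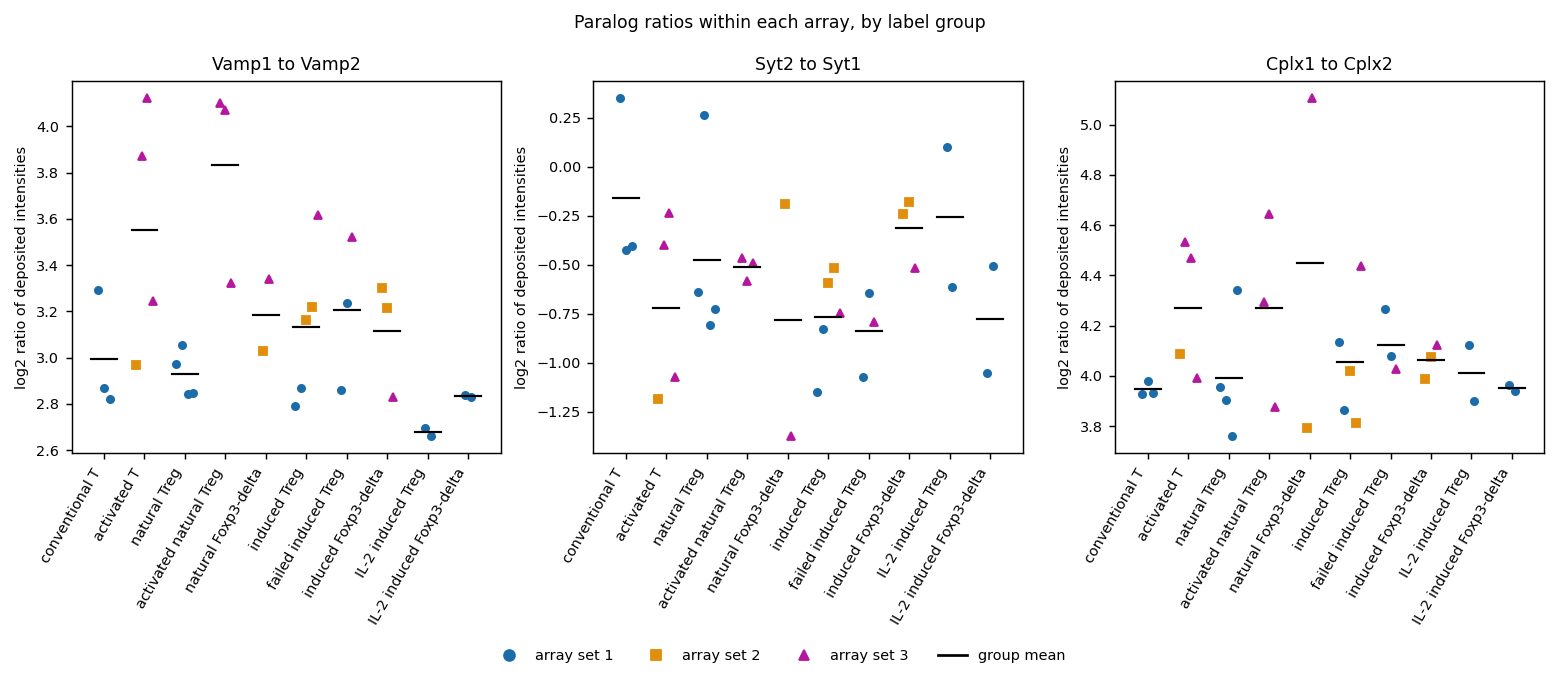
Log2 ratio of deposited intensities (vertical axes) of Vamp1 to Vamp2, Syt2 to Syt1 and Cplx1 to Cplx2 on 31 arrays, by label group; points are arrays, shapes and colours the array sets, lines the group means. In the left panel the highest 4 points, 3.87 to 4.12, are arrays of set 3 labelled activated T or activated natural Treg.

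**Figure D5:**
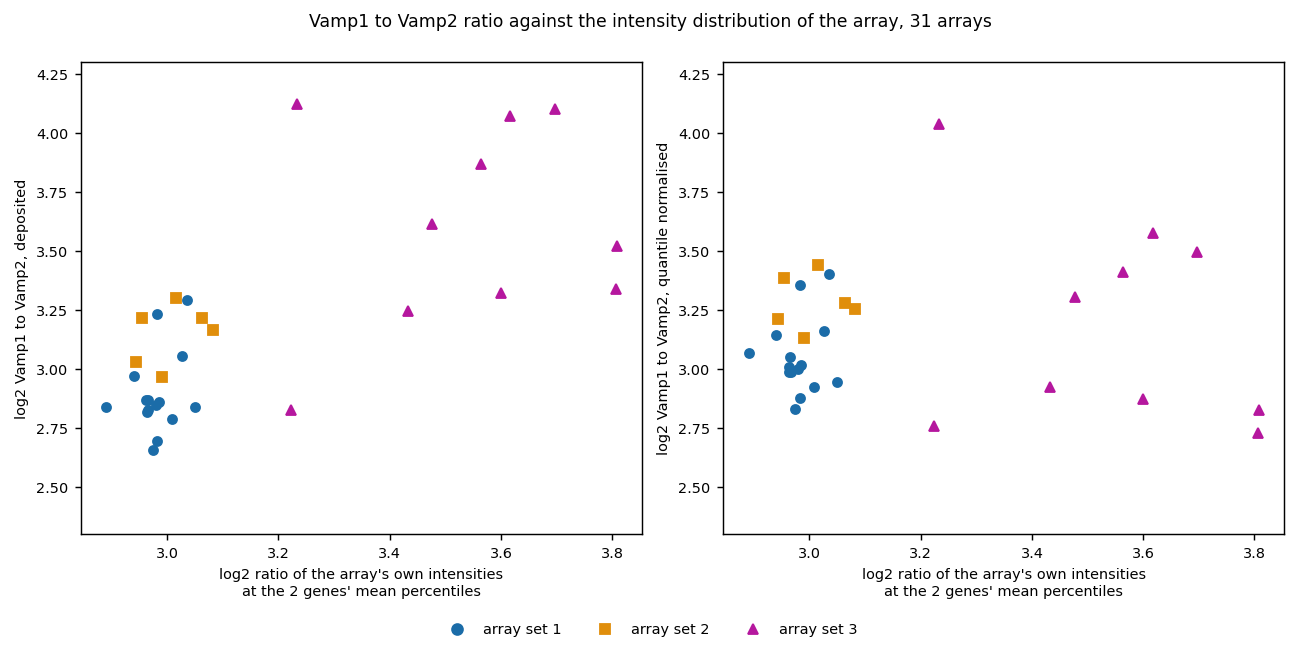
Log2 Vamp1 to Vamp2 ratio of 31 arrays (vertical axes), deposited on the left and quantile normalised on the right, against the log2 ratio of the array's own intensities at the mean percentiles of both genes (horizontal axes). Set 3 lies apart on the horizontal axis, at 3.22 to 3.81, and its mean ratio is 3.60 in the left panel and 3.19 in the right one. The sets were formed in part from array intensities, so their separation on the horizontal axis is not independent of their definition.

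The Syt2 to Syt1 ratio ran from -1.38 to 0.35 and did not pass the threshold across label groups (F 1.13, permutation p = 0.385, adjusted 0.577). Conventional T arrays gave 0.35, -0.42 and -0.41, activated T arrays -1.19, -0.40, -0.24 and -1.07, and induced Foxp3-delta arrays -0.24, -0.18 and -0.52. Ratios above 0 were seen on 3 arrays, 1 each of conventional T, natural Treg (0.27) and IL-2 induced Treg (0.10), and each had arrays below 0 in its own group. Taken with the dim Syt2 1449866_at in place of the brightest probe set, the adjusted p was 0.00498. That pair is 1 of 22 other pairs of probe sets tried for the 3 ratios after values had been seen, and 1 other pair passed the threshold.

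The Cplx1 to Cplx2 ratio ran from 3.76 to 5.11 (F 0.79, permutation p = 0.622, adjusted 0.622). Conventional T arrays gave 3.93, 3.98 and 3.93, and activated T arrays 4.09, 4.53, 4.47 and 3.99, all above them (exact permutation test p = 0.0571, adjusted 0.571 over 24 tests). That p is the smallest that 4 against 3 arrays allow, so this test could not pass the threshold. Natural Foxp3-delta arrays gave 3.79 and 5.11, the latter the highest of all. The mean was 4.00, 3.96 and 4.35 in array sets 1, 2 and 3, highest in set 3, whereas after quantile normalisation it was 4.13, 4.22 and 3.89, lowest in set 3.

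The other genes of the pathway were counted by the brightest probe set of each. Lists of them had median percentiles of 95.5 for priming and SNARE disassembly factors (10 genes, with Nsf, Napb and Napg brightest), 96.8 for vesicle recycling (13 genes, with Dnm1, Cltc and Sh3gl2 brightest) and 92.3 for other vesicle proteins (18 genes, with Rab3a, Sypl and Rab3c brightest). Other SNARE proteins stood at 89.1 (22 genes, with Snap47, Vti1b and Snap91 brightest, the last of which encodes a clathrin assembly protein and no SNARE), active zone scaffolds at 72.8 (13 genes, with Rims1, Rims2 and Rims3 brightest) and other synaptotagmins, complexins and calcium sensors at 70.5 (20 genes, with Syt11, Rph3a and Cadps brightest).

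Between activated T and conventional T arrays, 2 of 22 genes of the SNARE list were called (6.17% of all probe sets), both higher: Vamp3 by 0.35 (SE 0.09, adjusted p 0.022) and Vamp8 by 0.28 (SE 0.09, adjusted p 0.0486), which serve secretion outside neurons. 1 of 13 active zone genes was lower, Rims1 by 0.53 (SE 0.15, adjusted p 0.042), a scaffold that docks vesicles. Of 17 other vesicle proteins Rab3b was higher (0.72, adjusted p 0.00648) and Sv2a lower (-0.42, adjusted p 0.0336), and of 13 recycling genes Bin1 was lower (-0.43, adjusted p 0.0314). The list medians ran from -0.06 to 0.10. These 6 calls, of 92 pathway genes tested, came from groups that share no array set, so label and set cannot be told apart. With array set as a block, an alternative added after seeing the data, 0 of the 92 were called (0.0811% of all). Vamp3 then differed by 0.04 (adjusted p 0.922) and Rab3b by 0.32 (adjusted p 0.449).

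Between activated natural Treg and natural Treg arrays, which lay in sets 3 and 1, 6 of 22 genes of the SNARE list were called, 4 higher and 2 lower, where 15.6% of all probe sets were. Without Snap91 the count was 5 of 21, 3 higher and 2 lower. Vamp8 was higher there as well, by 0.30 (SE 0.09, adjusted p 0.0201), with Snap47 at 0.23 (adjusted p 0.0186) and Snap91 at 0.41 (adjusted p 0.00857). Doc2a, a calcium sensor, was lower by 1.02 (SE 0.30, adjusted p 0.0241), 1 of 17. Higher were Ppfia3 among 13 active zone genes (0.68, adjusted p 0.00998), Rab3b and Synpr among 17 vesicle proteins (0.60 and 0.64, adjusted p 0.00757 and 0.0473) and Pacsin1 among 13 recycling genes (0.42, adjusted p 0.00459). Of 10 priming genes 0 were called. With array set as a block 0 of these 11 calls remained, and Doc2a differed by 0.11 (adjusted p 0.931) and Snap91 by 0.46 (adjusted p 0.174). The block also added a call, for 1 of 10 priming genes (0.199% of all probe sets called). On IL-2 induced Treg arrays, against induced Treg arrays, Stx16 was higher (0.34, adjusted p 0.0348) and Sypl, a relative of synaptophysin, lower (-0.55, adjusted p 0.0126), where 1.79% of all probe sets were called. With the block their adjusted p were 0.109 and 0.0574, and 1 of 17 other synaptotagmins, complexins and calcium sensors was called (1.31% of all). In the other 5 comparisons 0 genes of these lists were called without the block. With it, 1 of 10 priming genes was called between activated natural Treg and activated T arrays (1.77% of all).

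Outside the list, the gene whose normalised values followed each member most closely over the 31 arrays, among 11719 genes, was Mri1 for Vamp2 (r = 0.82), Plekha3 for Cplx1 (0.80), Zfp800 for Vamp1 (0.71) and Scrib for Syt1 (0.69). For Stx1a it was Sall3 (0.68), for Cplx2 Ube2d-ps (0.67), for Syp Mir99ahg (0.65), for Snap25 Cetn4 (0.64) and for Syt2 Crebrf (0.61). Members were left out of this search. The arrays share label groups and array sets, so these values are a description.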

How the data were processed

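Biotin-labelled RNA was hybridised to 31 Affymetrix mouse arrays, per the labels' protocols. The authors deposited 1 intensity per probe set and array, never below 0 and not on a log scale, judging from the values. Their probe summary, background correction and array scaling are not given in the sources used here. The medians of the deposited arrays differ. The number of arrays limits the precision. Through the platform annotation, 34945 probe sets carried 1 gene symbol, 932 several and 9160 none, and 64 were controls.

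Arrays were quantile normalised, and log2(intensity + 16) was fitted with limma 3.58.1 in R 4.3.3 (lmFit, eBayes), with 1 mean per label group over all 31 arrays and without a block. The probe sets fitted lay above the table median on at least 2 arrays. A log2 difference on this scale understates the change of dim probe sets. Ratios were tested with NumPy 2.4.6 by permuting labels (100000 permutations of F, exact for pairs of groups). The plan took a ratio within an array as free of scaling, which holds for linear scaling only. Scripts were tested on simulated data. The brightest probe set of a gene has the highest mean over all arrays.

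The labels give no batch. Array sets are 3 clusters (Ward) of the cre to bioB ratio, the median and the 99th percentile. With all groups pooled, replicate numbers did not mark pairs. Deviations from group means had a median correlation of 0.000661 in same-numbered arrays and -0.00198 in others. Pairing between particular groups was not tested.

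All members are named, with the pathway genes called (up to 3 a list and comparison, by adjusted p), the brightest 3 of each list and the gene most like each member. Members, lists and markers were chosen with earlier results of these data known. Alternatives varied the normalisation, pseudocount, filter, probe sets, arrays and blocks.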

Additional observations from a re-analysis of the deposited data

Results flagged for a closer look

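Among 36 sets of arrays examined (the brightest probe set of each member and each ratio, in groups of 4 or 5 arrays), an array stood apart from its group in 2, and chance gives about 1 in 20. Syt1 had an intensity of 3218 on induced Treg array 4, where the other arrays of that group gave 1991 to 2274. The Syt2 to Syt1 ratio (log2) was 0.27 on natural Treg array 2, where the other arrays of that group gave -0.81 to -0.64.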

How the results depend on the processing

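Under other settings, 94 counts of called member probe sets and ratio tests stayed within 1.5 times or on their side of the threshold, 12 counts moved further and 3 ratio tests passed it. With values as deposited, the median of all probe sets shifted by -0.53 between activated natural Treg and natural Treg. It shifted by 0.45 between induced Treg and activated T. In each of these comparisons 11 member probe sets were called (62.9% and 62.6% of all). On the same values 2 were called for activated T versus conventional T (23.7% of all) and 0 for interleukin 2 (0% of all). With arrays scaled to a common median, 2 were called for natural Treg versus natural Foxp3-delta (7.71% of all), 10 for activated T versus conventional T (26.8% of all) and 5 for activated natural Treg versus natural Treg (20.7% of all). With 1 probe set per gene, activated natural Treg versus natural Treg called 1 and interleukin 2 called 0, which also had 0 when only its own arrays were fitted. With array set as a block these counts were 0 and 2 (0.199% and 1.31% of all). Shares over all probe sets are given here for the scalings and the array set block only. The replicate block left every count as it was (2 and 1 in these comparisons) and gave adjusted p of 0.12, 0.621 and 0.621 for the ratios. Replicate numbers marked no pairs with all groups pooled, and pairing between particular groups was not tested.

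The Vamp1 to Vamp2 ratio had an adjusted p of 0.016 with the mean of all tested probe sets. Of 22 other probe set pairs, added after seeing the data, 2 passed, at 0.00498 (Syt2 1449866_at to Syt1 1433884_at) and 0.0413 (Cplx1 1417746_at to Cplx2 1421477_at). Leaving out each array gave 0 to 1 called for activated T versus conventional T, 1 to 2 for activated natural Treg versus natural Treg, 0 to 1 for interleukin 2 and 0 otherwise, and adjusted p of 0.0211 to 0.197 (Vamp1 to Vamp2), 0.125 to 0.689 (Syt2 to Syt1) and 0.0542 to 0.727 (Cplx1 to Cplx2).

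Signs turned with values as deposited for Syt2 1420418_at between activated T and conventional T (-0.0635), Stx1a 1437390_x_at (-0.49) and Cplx2 1455672_s_at (-0.28) between activated natural Treg and natural Treg, and Cplx1 1417747_at (-0.11) and Cplx2 1421477_at (-0.21) in interleukin 2. With medians scaled they turned for Vamp2 1420834_at between activated T and conventional T (0.0178), for Cplx1 1448832_a_at in activated natural Treg against natural Treg (0.64) and activated T (0.0398), and for Cplx2 1421477_at in interleukin 2 (-0.0299). The cause was not tested.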
